A study of Mus musculus with 12 samples.

Results

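The 10 genes described here encode the chemokines that attract monocytes, the receptor through which monocytes follow them, and the growth factors that turn monocytes into macrophages and keep these alive, all read in mouse lung tumors. They are Ccl2, Ccl7, Ccl8, Ccl12, Ccl3, Ccl4, Ccr2, Csf1, Csf1r and Csf2, chosen by name for what they encode and not by their values. The 10 symbols stand among 34678 in the files, and all of them passed the filter on low values that left 15350 genes to test. None of the 10 differed between arms after adjustment over all genes. Ccl8, Ccr2 and Csf1r had the largest log2 differences with palbociclib, all upward. These 3 of the 10 were under an unadjusted p of 0.05 in limma, against 20.5% of all genes. From tumor to tumor Ccl8, Ccl12 and Ccr2 followed Csf1r, Ccl2 varied with Csf1, and Ccl3 with Ccl4.

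Monocytes leave the bone marrow and enter inflamed tissue and tumors when the receptor CCR2 on their surface meets its ligands. In the mouse these ligands are CCL2, CCL7 and CCL12, encoded side by side in a cluster of CC chemokine genes, and CCL8 lies in the same cluster, although mouse CCL8 is best known as a ligand of CCR8. CCL3 and CCL4 are inflammatory chemokines that act on macrophages and lymphocytes, CCL3 in part through CCR1. CSF1 binds CSF1R, a receptor tyrosine kinase found mainly on monocytes and macrophages, which depend on it for survival. CSF2, also called GM-CSF, acts through another receptor on granulocytes, dendritic cells and macrophages.

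The tumors were subcutaneous and grew in C57BL/6 mice, 5 to 8 weeks old, from LLC1 cells, a Lewis lung carcinoma line, in which a short hairpin RNA against Lkb1 (gene symbol Stk11) had been expressed. Every arm carried this knockdown, vehicle included. The 4 arms were vehicle with control IgG, palbociclib (an inhibitor of CDK4 and CDK6) given by mouth at 100 mg/kg, an antibody against PD-1 at 200 µg per mouse (anti-PD-1), and both drugs together (combination), with 3 tumors each taken after 2 weeks. The values are FPKM, fragments per gene divided by gene length and library size, so that levels can be compared between genes. The study asked how a CDK4/6 inhibitor changes the tumor's immune cells alone and together with PD-1 blockade.

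Stk11 lay between 7.90 and 11.5 FPKM in all 12 tumors and could not serve as a check of the labels, since no tumor without the knockdown was included. The pan-leukocyte gene Ptprc lay between 0.84 and 3.36 FPKM. Low values moved in steps that gave an estimated 14900000 to 20300000 fragments per tumor. Genes of surrounding tissue were high in some tumors, most of them from palbociclib-treated mice. Skin markers summed to 315 FPKM in palbociclib tumor 2 and to at most 0.910 in the others, adipose markers to 186 in combination tumor 1 and 73.2 in palbociclib tumor 1, and skeletal muscle markers to 135 in palbociclib tumor 3, 130 in combination tumor 2 and 46.9 in vehicle tumor 1. The part of these tissues in any result was not tested.

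The upstream sequences of 4 of the genes show the promoter stretch just before each RefSeq start of transcription. Ccl8 and Ccl12 are shown because their levels followed Csf1r from tumor to tumor, and Csf1 and Ccl3 because theirs did not. Ccr2 also followed Csf1r (r = 0.839), and its window is not shown. Each run holds the 250 bases before the RefSeq transcription start on GRCm38.p6, 5′ to 3′ on the gene's own strand. The gene positions given below come from another annotation, GENCODE. The windows of Ccl8, Ccl12 and Csf1 adjoin those positions, and that of Ccl3 stops at 83649379, short of its GENCODE start at 83649355. Capitals mark a TATAAA box or a match to the NF-kB consensus.
Ccl8, chr11:82114935-82115184, plus strand: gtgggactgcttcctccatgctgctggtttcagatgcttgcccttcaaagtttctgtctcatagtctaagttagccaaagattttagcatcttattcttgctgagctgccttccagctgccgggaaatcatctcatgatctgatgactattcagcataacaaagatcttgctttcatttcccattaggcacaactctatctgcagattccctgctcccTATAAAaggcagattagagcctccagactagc
Ccl12, chr11:82101595-82101844, plus strand: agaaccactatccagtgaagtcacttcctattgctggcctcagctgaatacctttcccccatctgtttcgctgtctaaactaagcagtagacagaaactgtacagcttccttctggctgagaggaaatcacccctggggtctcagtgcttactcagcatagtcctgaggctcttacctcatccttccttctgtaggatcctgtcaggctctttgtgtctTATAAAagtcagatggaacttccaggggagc
Ccl3, chr11:83649379-83649628, minus strand: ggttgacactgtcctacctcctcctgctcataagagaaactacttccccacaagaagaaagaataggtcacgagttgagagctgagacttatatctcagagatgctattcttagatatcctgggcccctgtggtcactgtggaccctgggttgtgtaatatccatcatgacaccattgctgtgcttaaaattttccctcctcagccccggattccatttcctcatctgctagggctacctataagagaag
Csf1, chr3:107760470-107760719, minus strand: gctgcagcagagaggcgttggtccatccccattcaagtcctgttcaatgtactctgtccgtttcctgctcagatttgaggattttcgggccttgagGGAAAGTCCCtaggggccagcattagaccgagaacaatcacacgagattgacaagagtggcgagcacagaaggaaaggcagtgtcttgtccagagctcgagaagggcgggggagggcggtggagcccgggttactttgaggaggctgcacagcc

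RefSeq windows of Ccl8, Ccl12, Ccl3, Ccr2, Csf1 and Csf2 were searched for motifs. None was at hand for Ccl2, Ccl7 and Ccl4, and Csf1r was left out of the search. TATAAA stood at -32 to -27 before the start of Ccl8 and at -31 to -26 before that of Ccl12. This box is bound by the general transcription machinery, and 12.4% of 32851 promoter windows of the same length hold it on either strand. The NF-kB consensus, searched on both strands, matched the window of Csf1 alone of the 6, at -154 to -145 on the opposite strand, against 7.25% of all windows. GAGGAA, the core of sites for the myeloid factor PU.1, occurred in the windows of Ccl8, Ccl12 and Ccl3, and 23.3% of all windows hold it. TGANTCA (AP-1), TTCNNNGAA (GAS) and the interferon response element had no match in the 6 windows, against 6.75%, 7.02% and 2.98% of all windows. The windows of Ccr2, which followed Csf1r, and of Csf2 matched none of the motifs searched. Neither window adjoins the gene position given below. That of Ccr2 (124101933 to 124102182) lies mostly inside the gene, which starts at 124101950. That of Csf2 (54249900 to 54250149, minus strand) leaves a gap before the gene's start at 54249667. The stretch upstream of these starts was thus searched only in part. Any part of these motifs in the levels was not tested. Aligned with each other, the windows of Ccl8 and Ccl12 were identical at 55.6% of positions, the highest of the 15 pairs, which otherwise lay between 39.3% and 50.4%.

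The genes covered a wide span of abundance, and their order was much the same in every tumor. Ccl8, Ccl2 and Ccl7 held the first 3 places in all 12 tumors, with means of 195, 110 and 76.6 FPKM. Ccl8 stood first in 9 tumors, while Ccl2 stood first in vehicle tumor 3 and anti-PD-1 tumors 2 and 3, so that the order of these neighbors was not fixed. Csf1, Ccl12, Csf1r, Ccl3 and Ccl4 followed at places 4 to 8, with means of 28.7, 25.2, 15.7, 11.5 and 11.8 FPKM that overlapped in their ranges over tumors. Ccr2 took place 9 and Csf2 place 10 in every tumor, at means of 1.60 and 0.344 FPKM.

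**Figure D1:**
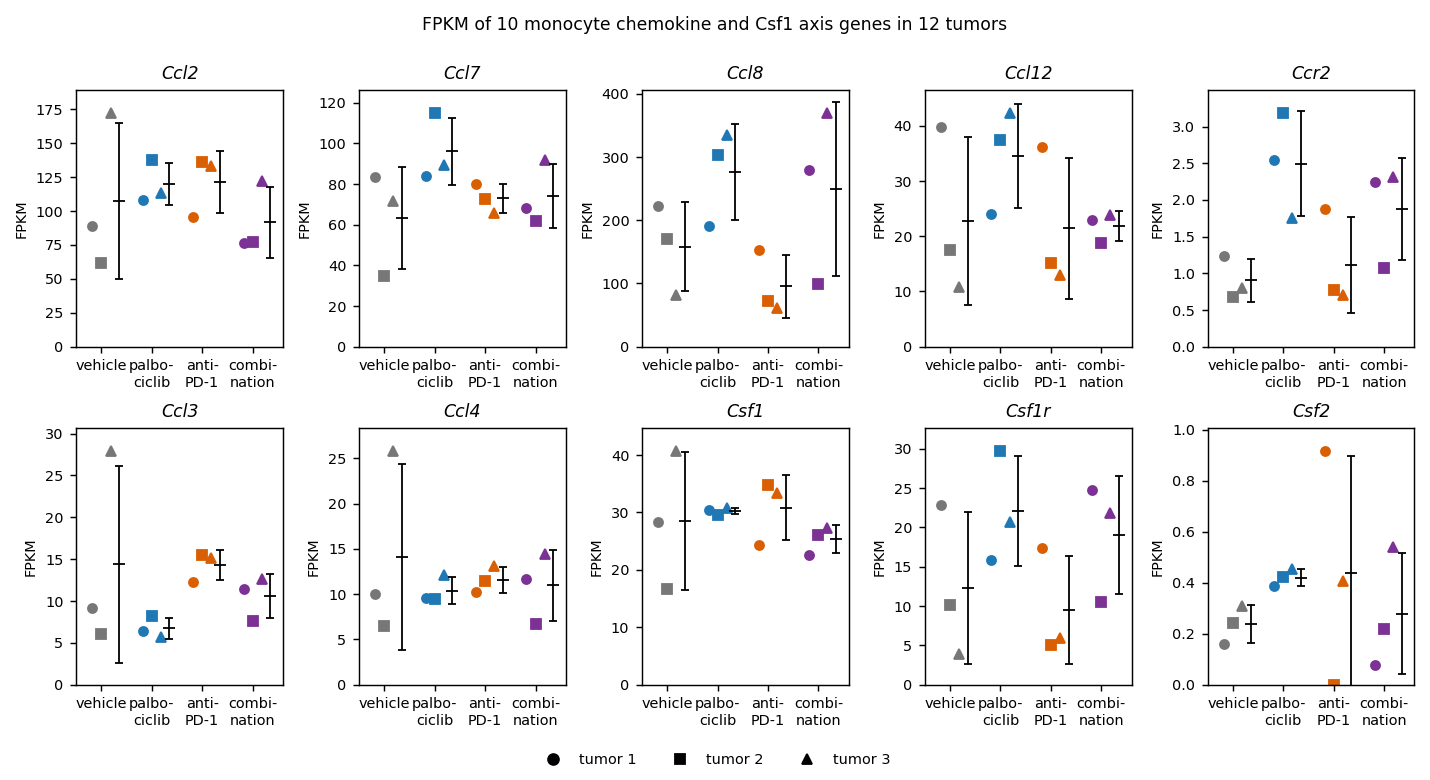
FPKM of each gene (vertical axis, own scale, from 0) in the 3 tumors of each arm (horizontal axis, symbols for tumor 1, 2 and 3), with the arm's mean and SD to the right of its points, bars below 0 ending at the axis. Csf1r and Ccl8 were low in vehicle tumor 3 and anti-PD-1 tumors 2 and 3, in which Ccl3 was at 27.9, 15.5 and 15.2 FPKM.

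Ccl8 had the highest mean level of the group and one of its largest differences with palbociclib. In vehicle tumors 1 to 3 it measured 222, 170 and 82.1 FPKM, and with anti-PD-1 153, 71.9 and 61.7. With palbociclib it measured 191, 303 and 335 FPKM, and with the combination 280, 99.6 and 369. Palbociclib tumors 2 and 3 and combination tumors 1 and 3 exceeded every tumor without the drug, and the other two treated tumors lay among the untreated ones. The palbociclib effect, the mean of palbociclib minus vehicle and combination minus anti-PD-1, was 1.09 on the log2 scale (SE 0.37, limma, adjusted p = 0.152). Its components were 0.88 against vehicle and 1.30 against anti-PD-1. Over the alternative settings the effect lay between 0.89 and 1.63, with adjusted p between 0.0602 and 0.406. In bulk tumors, a change in the number of cells of a type and a change in RNA per cell cannot be told apart, for Ccl8 or any other gene named here. Ccl8 occupies chromosome 11, positions 82115185 to 82116799 (GRCm38).

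Ccl2, encoding the chemokine most studied for drawing monocytes into tumors, was abundant in every tumor and did not separate the arms. Its levels were 88.7, 61.4 and 172 FPKM in the vehicle tumors and 108, 137 and 114 with palbociclib. They were 95.3, 136 and 134 under anti-PD-1 and 76.4, 77.0 and 122 with the combination. The lowest and the highest of the 12 values were both vehicle tumors, which spanned 2.80-fold. With palbociclib the effect was -0.07 (SE 0.23, 95% interval -0.57 to 0.43), with components of 0.28 and -0.42. The gene lies at 82035571 to 82037453 on chromosome 11.

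Ccl7, a CCR2 ligand gene next to Ccl2 (chromosome 11, 82045712 to 82047525), was at 83.4, 35.0 and 71.5 FPKM with vehicle and at 84.1, 115 and 89.3 with palbociclib. It was at 80.0, 72.8 and 66.0 under anti-PD-1 and at 68.2, 61.9 and 91.9 with the combination. All 3 palbociclib tumors lay above the 3 vehicle tumors, while the combination overlapped with anti-PD-1. The difference of palbociclib from vehicle was 0.68 (SE 0.28, limma, adjusted p = 0.340) and that of the combination from anti-PD-1 was 0.00. Their mean was 0.34 (SE 0.20), and it was 0.15 without vehicle tumor 2, which held the lowest level.

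Ccl12, a mouse CCR2 ligand without a direct human counterpart, was less abundant, at 39.8, 17.6 and 10.7 FPKM with vehicle and 24.1, 37.4 and 42.3 with palbociclib. It was at 36.1, 15.1 and 13.1 under anti-PD-1 and at 23.0, 18.8 and 23.9 with the combination. In both arms without palbociclib the first tumor was 2 or more times as high as the others, and these tumors overlapped with the treated ones. Over both pairs of arms palbociclib gave 0.48 (SE 0.33, 95% interval -0.24 to 1.20), from 0.78 against vehicle and 0.17 against anti-PD-1. Ccl12 lies at 82101845 to 82103400 on chromosome 11.

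The proportions of these 4 monocyte chemokine genes differed from tumor to tumor. Ccl8 made up 22.5% to 62.5% of their summed FPKM, and Ccl2 17.1% to 51.1%. In vehicle tumor 3 and anti-PD-1 tumors 2 and 3 the Ccl2 share was 51.1%, 46.0% and 48.7%, and in the other 9 it was at most 29.9%. The summed FPKM of the 4 genes was 284 to 434 with vehicle, 407 to 593 with palbociclib, 274 to 365 under anti-PD-1 and 257 to 607 with the combination.

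Ccr2, the receptor that marks inflammatory monocytes, had the smallest p of the group in the palbociclib effect. Its FPKM were 1.23, 0.684 and 0.794 with vehicle and 2.55, 3.18 and 1.75 with palbociclib. They were 1.87, 0.777 and 0.707 under anti-PD-1 and 2.25, 1.07 and 2.31 with the combination. All palbociclib tumors lay above all vehicle tumors, whereas combination tumor 2 lay below anti-PD-1 tumor 1. The palbociclib effect was 1.06 (SE 0.28, limma, adjusted p = 0.0995), with 1.37 against vehicle (SE 0.40, adjusted p = 0.227) and 0.75 against anti-PD-1. Without anti-PD-1 tumor 1, the highest of its arm, the effect was 1.26 and passed the threshold in limma (adjusted p = 0.0311), and over all alternatives it lay between 0.66 and 1.26 with adjusted p up to 0.502. The gene lies on chromosome 9, 124101950 to 124113557, and its values rest on an estimated 2142 fragments over the 12 tumors. That number is rough, as its estimates per tumor lay up to 0.465 from a whole number.

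Ccr2 was also set against 6 monocyte marker genes of the same tumor, Ly6c2, Plac8, Chil3, Vcan, Fn1 and Ms4a4c. The difference of log2 levels, Ccr2 minus the mean of the markers, was -2.20 ± 0.28 with vehicle, -2.03 ± 0.50 with palbociclib, -2.52 ± 0.41 under anti-PD-1 and -1.98 ± 0.39 with the combination (SD, n = 3). Palbociclib shifted it by 0.35, which did not exceed the spread between tumors (two-sided exact permutation test over 400 relabelings, p = 0.15, smallest possible p 0.005). The sum of the 6 markers was 55.6 to 59.2 FPKM with vehicle, 60.2 to 84.8 with palbociclib, 52.8 to 62.3 under anti-PD-1 and 50.0 to 61.7 with the combination, with none of the 6 at 0. Fn1 and Vcan weighed most in this sum, at means of 23.4 and 16.3 FPKM. Plac8, Ms4a4c, Chil3 and Ly6c2 had means of 8.63, 6.27, 3.88 and 2.42, so the sum says little of their changes. Of the 6, Ms4a4c, Ly6c2, Plac8 and Chil3 were higher with palbociclib at an unadjusted p under 0.05 and Fn1, which fibroblasts and cancer cells also express, was lower. Of all genes 20.5% were under that threshold.

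Csf1r, the CSF1 receptor, varied most between tumors among the genes with over 1 FPKM. It measured 22.8, 10.1 and 3.89 FPKM with vehicle and 15.8, 29.7 and 20.7 with palbociclib. It measured 17.4, 5.05 and 5.95 under anti-PD-1 and 24.7, 10.6 and 21.8 with the combination. The 3 lowest values belonged to tumors without palbociclib, and vehicle tumor 1 and anti-PD-1 tumor 1 lay among the treated tumors. The palbociclib effect was 1.14 (SE 0.44, limma, adjusted p = 0.189), with components of 1.13 and 1.14. Leaving out vehicle tumor 3, the lowest, gave 0.81, and leaving out vehicle tumor 1 gave 1.44.

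Macrophage markers moved with these results. Adgre1, which encodes F4/80, was at 30.6, 12.1 and 5.80 FPKM with vehicle, 20.96, 42.3 and 28.5 with palbociclib, 28.8, 5.92 and 7.84 under anti-PD-1 and 41.0, 15.2 and 29.0 with the combination. The 9 macrophage markers summed to 127 to 681 FPKM with vehicle, 549 to 894 with palbociclib, 145 to 515 under anti-PD-1 and 394 to 896 with the combination, and none of them was at 0. All 9 had positive palbociclib effects with a median of 1.21, against 0.06 for all genes. Of the 9, 5 had an unadjusted p under 0.05, against 20.5% of all genes, and none an adjusted one. Their part in the levels of Ccl8, Ccr2 and Csf1r was not tested. Relative to the mean of the 9 markers, Csf1r stood at -0.84 ± 0.32 with vehicle, -0.72 ± 0.32 with palbociclib, -0.87 ± 0.03 under anti-PD-1 and -0.67 ± 0.14 with the combination (log2 difference, SD, n = 3). The shift with palbociclib was 0.16 and within the spread (two-sided exact permutation test, p = 0.245), and without vehicle tumor 1 it was 0.26 (exact p = 0.025).

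**Figure D2:**
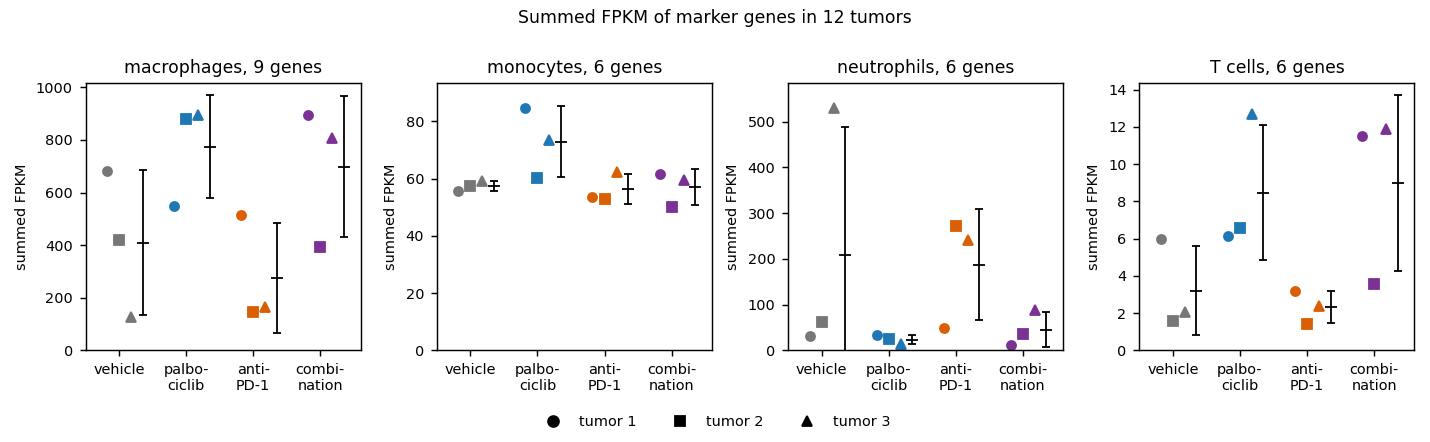
Summed FPKM of marker genes (vertical axis, from 0) for macrophages, monocytes, neutrophils and T cells in the 3 tumors of each arm (horizontal axis), with mean and SD, bars below 0 ending at the axis. Vehicle tumor 3 and anti-PD-1 tumors 2 and 3 had macrophage sums of 127, 145 and 164 and neutrophil sums of 530, 271 and 241 FPKM. Fn1 and Vcan weighed most in the monocyte sum.

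Csf1, the ligand of that receptor, was steadier than Csf1r. Its FPKM were 28.3, 16.6 and 40.6 with vehicle and 30.4, 29.6 and 30.8 with palbociclib. They were 24.4, 34.8 and 33.3 under anti-PD-1 and 22.6, 26.1 and 27.2 in the combination arm. The vehicle tumors contained both the lowest and the highest value. For palbociclib the effect was -0.05 (SE 0.18, 95% interval -0.45 to 0.35), with components of 0.18 and -0.27. The ratio of ligand to receptor FPKM was 10.4 in vehicle tumor 3 and 6.89 and 5.60 in anti-PD-1 tumors 2 and 3, against 0.914 to 2.47 in the other 9. Csf1 lies on chromosome 3, 107741048 to 107760469.

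Ccl3 and Ccl4, inflammatory chemokines made by activated macrophages, neutrophils and lymphocytes, were highest in 1 vehicle tumor. Ccl3 was at 9.19, 6.10 and 27.9 FPKM with vehicle, 6.36, 8.17 and 5.67 with palbociclib, 12.3, 15.5 and 15.2 under anti-PD-1 and 11.5, 7.61 and 12.6 with the combination. All palbociclib tumors lay below all anti-PD-1 tumors and overlapped with vehicle. The palbociclib effect was -0.63 (SE 0.31, limma, adjusted p = 0.272), from -0.79 and -0.46, and it was -0.31 without vehicle tumor 3. Ccl3 lies at 83647844 to 83649355 on chromosome 11.

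Ccl4, its neighbor at 83662584 to 83664683, was at 9.98, 6.49 and 25.8 FPKM with vehicle and 9.62, 9.48 and 12.1 with palbociclib. It was at 10.2, 11.5 and 13.1 under anti-PD-1 and at 11.7, 6.71 and 14.5 with the combination. The highest value was that of vehicle tumor 3, and the other 11 lay between 6.49 and 14.5 FPKM. Its palbociclib effect was -0.17 (SE 0.30, 95% interval -0.82 to 0.48), with components of -0.20 and -0.14. The ratio of Ccl3 to Ccl4 was 0.470 to 0.862 with palbociclib, 0.921 to 1.08 with vehicle, 1.16 to 1.35 under anti-PD-1 and 0.873 to 1.13 with the combination.

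The 6 neutrophil markers all had negative palbociclib effects, as Ccl3 had. They summed to 30.5 to 530 FPKM with vehicle, 13.7 to 32.7 with palbociclib, 48.3 to 271 under anti-PD-1 and 11.7 to 88.3 with the combination, and Ly6g was at 0 in at least 1 tumor. Their median palbociclib effect was -1.66, against 0.06 for all genes. Of the 6, 5 were lower at an unadjusted p under 0.05, against 20.5% of all genes in either direction, and none after adjustment. Their part in the levels of Ccl3, Ccl4 and Csf1 was not tested.

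Csf2 was close to undetected. It was at 0.161, 0.243 and 0.308 FPKM with vehicle, 0.385, 0.420 and 0.453 with palbociclib, 0.914, 0 and 0.405 under anti-PD-1 and 0.078, 0.219 and 0.540 with the combination. These values rest on an estimated 57 fragments over all tumors and at most 14 in 1 tumor, and no count test was run on them. Within the anti-PD-1 arm alone the estimate ran from 0 to 14 fragments. Its palbociclib effect was 0.24 (SE 0.51, 95% interval -0.87 to 1.35), with components of 0.64 and -0.17. Csf2 lies at 54247271 to 54249667 on chromosome 11.

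**Figure D3:**
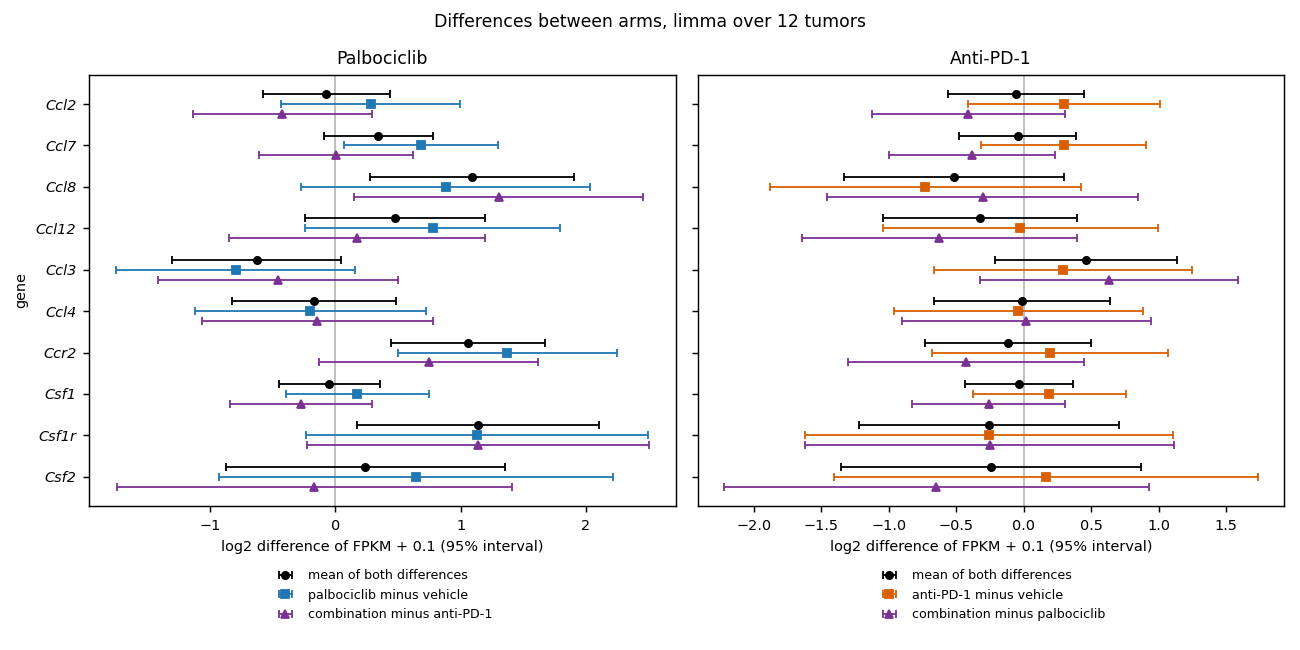
Log2 differences of FPKM + 0.1 (horizontal axis, with 95% intervals from limma) for each gene (vertical axis), left for palbociclib and right for anti-PD-1, each as the mean of both differences and as its components. With palbociclib the intervals of Ccl8 (1.09), Ccr2 (1.06) and Csf1r (1.14) lay above 0, and none of the 10 genes passed the adjusted threshold.

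Counted over the group, 0 of the 10 genes were called for the palbociclib effect in limma at an adjusted p under 0.05, where 0.313% of all 15350 genes were called. At an unadjusted p under 0.05 there were 3 of the 10, against 20.5% of all genes, a share near that background. The median effect of the 10 was 0.29, and that of all genes was 0.06. Without anti-PD-1 tumor 1, the count was 1 of 10, namely Ccr2, with 758 of all genes called. Without palbociclib tumors 1 and 2 and combination tumors 1 and 2, each with much skin, fat or muscle RNA, 0 of the 10 genes were called and 1 had an unadjusted p under 0.05, with a median of 0.58. Palbociclib tumor 3, with its muscle genes, stayed in that fit.

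Each arm against vehicle gave the same count of 0 at the adjusted threshold. Palbociclib minus vehicle had 0.143% of all genes called, and 2 of the 10 genes, Ccl7 and Ccr2, had an unadjusted p under 0.05 against 13.8% of all genes. Anti-PD-1 minus vehicle had 0% of genes called, and 0 of the 10 genes were under the unadjusted threshold against 8.4%. Combination minus vehicle had 0.013% called, and Ccr2 alone was under the unadjusted threshold, at 0.94 (SE 0.40, limma, adjusted p = 0.275), against 17% of all genes. The other values of the combination minus vehicle were 0.58 for Ccl8, 0.88 for Csf1r, 0.30 for Ccl7, 0.15 for Ccl12, -0.13 for Ccl2, -0.17 for Ccl3, -0.18 for Ccl4, -0.08 for Csf1 and 0.00 for Csf2. These comparisons share the vehicle tumors.

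The combination was then set against each drug alone. Against anti-PD-1, 0 of the 10 genes were called, with 0.00651% of all genes called, and Ccl8 alone was under an unadjusted p of 0.05 (1.30, SE 0.52, limma, adjusted p = 0.376) against 11.8% of all genes. Against palbociclib, 0 of the 10 were called, with 0.00651% of all genes, and 0 were under the unadjusted threshold against 4.52%. The values of the combination minus palbociclib were -0.41 for Ccl2, -0.38 for Ccl7, -0.30 for Ccl8, -0.63 for Ccl12, 0.63 for Ccl3, 0.02 for Ccl4, -0.43 for Ccr2, -0.26 for Csf1, -0.25 for Csf1r and -0.65 for Csf2. The chemokine and receptor genes other than Ccl3 and Ccl4 thus had lower means in the combination than with palbociclib alone, none beyond the spread between tumors.

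Anti-PD-1 had no detectable effect on any of the 10 genes. The mean effect with and without palbociclib gave 0 calls among the 10 and 0% among all genes in limma, and at an unadjusted p under 0.05 it gave 0 of 10 against 6.77%. It was -0.06 for Ccl2, -0.05 for Ccl7, -0.52 for Ccl8, -0.33 for Ccl12, 0.46 for Ccl3, -0.01 for Ccl4, -0.12 for Ccr2, -0.04 for Csf1, -0.26 for Csf1r and -0.24 for Csf2. Ccl8 and Ccl3 had the largest values, in opposite directions, with 95% intervals of -1.33 to 0.30 and -0.22 to 1.13. Anti-PD-1 minus vehicle was 0.30 for Ccl2, 0.29 for Ccl7, -0.73 for Ccl8, -0.03 for Ccl12, 0.29 for Ccl3, -0.04 for Ccl4, 0.19 for Ccr2, 0.19 for Csf1, -0.26 for Csf1r and 0.16 for Csf2.

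Whether palbociclib acted differently with anti-PD-1 was tested as an interaction, and no difference was detected. Of the 10 genes 0 passed in limma, with 0% of all genes called, and 0 of 10 had an unadjusted p under 0.05 against 5.73%. The interaction was -0.71 for Ccl2, -0.68 for Ccl7, 0.43 for Ccl8, -0.60 for Ccl12, 0.34 for Ccl3, 0.06 for Ccl4, -0.62 for Ccr2, -0.45 for Csf1, 0.01 for Csf1r and -0.81 for Csf2. Its 95% intervals were wide, as for Csf1r from -1.92 to 1.94 on the log2 scale, so that differences within them were not detectable with 3 tumors per arm.

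The other genes of the network were taken from lists of related genes, and none of their members passed the adjusted threshold in the palbociclib effect. Of 14 other CC chemokine genes 9 were tested, 5 were higher at an unadjusted p under 0.05 and 0 were lower, with a median of 0.51. Ccl6 and Ccl9, mouse CCR1 ligands abundant in myeloid cells, had effects of 0.56 (SE 0.24) and 0.51 (SE 0.23). Ccl5, made by T cells and macrophages, had 0.97 (SE 0.40) and ranged from 3.00 FPKM in vehicle tumor 3 to 19.7 in combination tumor 3. The others under the unadjusted threshold were Ccl17 and Ccl22, both CCR4 ligands of dendritic cells.

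Of 14 CC and related receptor genes 7 were tested and 3 were higher at an unadjusted p under 0.05. Among these 3 were Ccr8, encoding the receptor best known for mouse CCL8, at 1.43 (SE 0.44), and Ackr1 at 0.99 (SE 0.37). Both were low, at means of 0.224 and 0.134 FPKM. Ccr1, a receptor of CCL3, had an effect of 0.32 (SE 0.28), and Cx3cr1, a receptor of patrolling monocytes, had 0.77 (SE 0.38) at a mean of 0.239 FPKM. Neither Ccr1 nor Cx3cr1 was under the unadjusted threshold.

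The colony-stimulating factor family held 9 genes, of which 8 were tested, with 3 higher and 1 lower at an unadjusted p under 0.05. Il34, encoding the other ligand of CSF1R, was flat at 0.00 (SE 0.12), between 4.15 and 6.37 FPKM in all 12 tumors. Csf2ra and Csf2rb, the chains of the GM-CSF receptor, had 0.63 (SE 0.25) and 0.22 (SE 0.26) and were read at means of 10.8 and 6.14 FPKM, far above their ligand. The lower gene was Csf3, encoding G-CSF, at -1.95 (SE 0.65). It stood at 10.8 FPKM in vehicle tumor 3 and between 0.048 and 1.87 in the other 11.

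Among 9 myeloid transcription factor and CSF1R signaling genes, 5 were higher and 1 lower at an unadjusted p under 0.05, with a median of 0.72. Spi1, encoding PU.1, which drives Csf1r in macrophages, had 0.78 (SE 0.26, limma, adjusted p = 0.146) and passed the threshold without anti-PD-1 tumor 1. The lower gene was Cebpb at -0.64 (SE 0.25). Of 9 NF-kB and inducing cytokine genes, 2 were higher (Tnf and Ifng) and 3 lower (Il1b, Nfkbia and Tnfaip3), with a median of 0.01. Il1b was at 4.64, 4.72 and 66.8 FPKM with vehicle and 5.06, 35.0 and 28.1 under anti-PD-1, and between 1.87 and 12.8 in the palbociclib-treated tumors, so that 3 of the 6 untreated tumors lay within the treated range. The 20.5% of all genes under the unadjusted threshold also applies to these lists.

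Across the 12 tumors Ccl8, Ccl12 and Ccr2 followed Csf1r, and Ccl2 followed Csf1. Of 45 pairs, 9 had an adjusted p under 0.05 for Pearson's r and 4 for Spearman's rho (100000 permutations, Benjamini-Hochberg over the 45 pairs), and all pairs share the same 12 libraries. The permutations shuffled all 12 tumors regardless of arm, so shared differences between arms enter these p-values. Ccl8 and Csf1r had r = 0.909 (permutation p = 9e-05, adjusted 0.00203) and rho = 0.832 (permutation p = 0.00139, adjusted 0.0313). The relation held without the 2 most distant tumors (r = 0.863), in the 6 tumors without palbociclib (r = 0.887), in the 6 with it (r = 0.882) and for deviations from the arm means (r = 0.877). Ccl12 and Csf1r had r = 0.882 (permutation p = 0.00019, adjusted 0.00285) and rho = 0.790 (permutation p = 0.00361, adjusted 0.0451), with 0.968 without palbociclib and 0.624 with it.

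**Figure D4:**
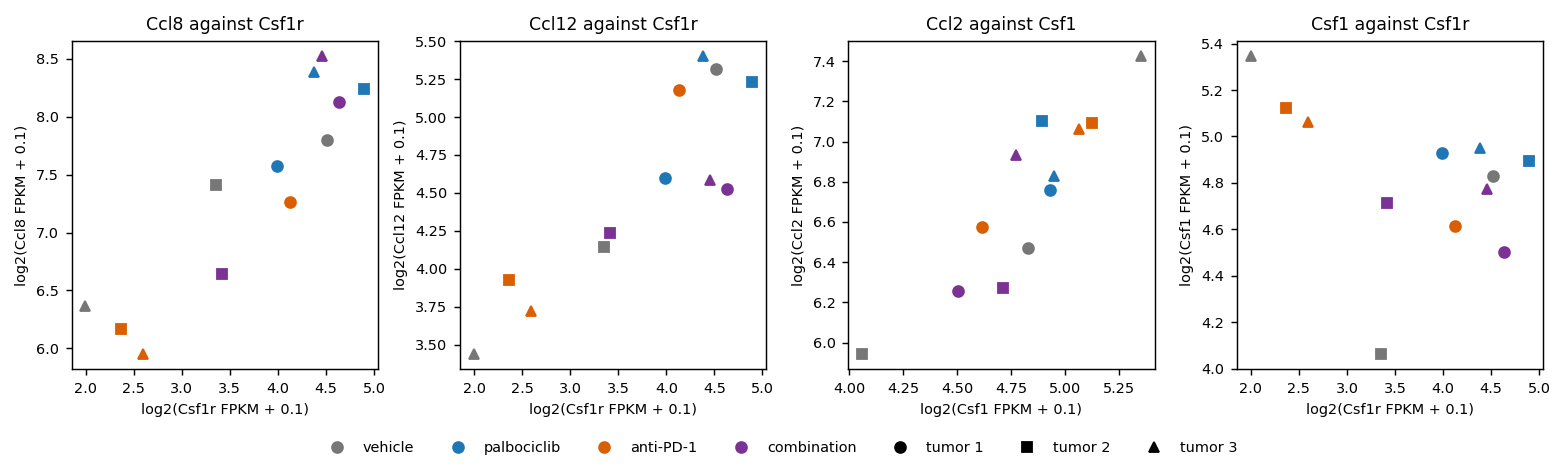
Log2(FPKM + 0.1) of pairs of genes, 1 point per tumor, colored by arm and with symbols for tumor 1, 2 and 3. Ccl8 and Ccl12 rose with Csf1r (r = 0.909 and 0.882) and Ccl2 with Csf1 (r = 0.903), whereas Csf1 against its receptor Csf1r gave r = -0.422.

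Ccl2 and Csf1 had r = 0.903 (permutation p = 2e-05, adjusted 0.0009) and rho = 0.846 (permutation p = 0.00076, adjusted 0.0313). The value was 0.794 without the 2 most distant tumors, 0.966 in the 6 tumors without palbociclib, 0.762 in the 6 with it and 0.887 for deviations from the arm means. Ccl3 and Ccl4 had r = 0.791 (permutation p = 0.00254, adjusted 0.0183) and rho = 0.650 (permutation p = 0.0257, adjusted 0.105), with 0.962 without palbociclib, 0.433 with it and 0.915 for deviations from the arm means. Ccl2 and Ccl4 had r = 0.771 (permutation p = 0.00257, adjusted 0.0183) and rho = 0.545 (permutation p = 0.0715, adjusted 0.215), and 0.502 without the 2 most distant tumors. The relation of Ccl2 and Ccl4 thus rested in part on those tumors. The other pairs among these 4 genes did not pass the adjusted threshold. Ccl2 and Ccl3 had r = 0.608 (permutation p = 0.0364, adjusted 0.121) and rho = 0.566 (permutation p = 0.0605, adjusted 0.195), with 0.242 without the 2 most distant tumors, 0.972 without palbociclib and -0.143 with it. Ccl3 and Csf1 had r = 0.558 (permutation p = 0.0598, adjusted 0.163) and rho = 0.441 (permutation p = 0.156, adjusted 0.334), with 0.498 without the 2 most distant tumors, 0.913 without palbociclib and -0.714 with it. Ccl4 and Csf1 had r = 0.710 (permutation p = 0.0154, adjusted 0.0631) and rho = 0.531 (permutation p = 0.08, adjusted 0.225), with 0.220 without the 2 most distant tumors, 0.880 without palbociclib and -0.014 with it. Of the 6 pairs, Ccl2 with Csf1 thus kept the highest value in the 6 treated tumors, and the differences between treated and untreated tumors were not tested.

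Between ligands and receptors the relation differed from pair to pair. Csf1 and Csf1r had r = -0.422 (permutation p = 0.177, adjusted 0.379) and rho = -0.469 (permutation p = 0.129, adjusted 0.303). Ccl2 and Ccr2 had r = 0.028 (permutation p = 0.932, adjusted 0.932) and rho = 0.098 (permutation p = 0.765, adjusted 0.839). Ccr2 followed Csf1r (r = 0.839, permutation p = 0.00089, adjusted 0.01, rho = 0.762, permutation p = 0.00576, adjusted 0.0518) and Ccl7 (r = 0.705, permutation p = 0.00285, adjusted 0.0183, rho = 0.776, permutation p = 0.00401, adjusted 0.0451), a gene of one of its ligands. With Ccl12, encoding another ligand, Ccr2 had r = 0.697 (permutation p = 0.0150, adjusted 0.0631) and rho = 0.650 (permutation p = 0.0257, adjusted 0.105). The remaining pairs under the adjusted threshold for r were Ccl8 with Ccr2 (r = 0.787) and Ccl8 with Ccl12 (r = 0.768). Ccl2 and Ccl8, both monocyte chemokine genes, had r = -0.802 in the 6 tumors without palbociclib and 0.621 in the 6 with it, and that difference was not tested.

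**Figure D5:**
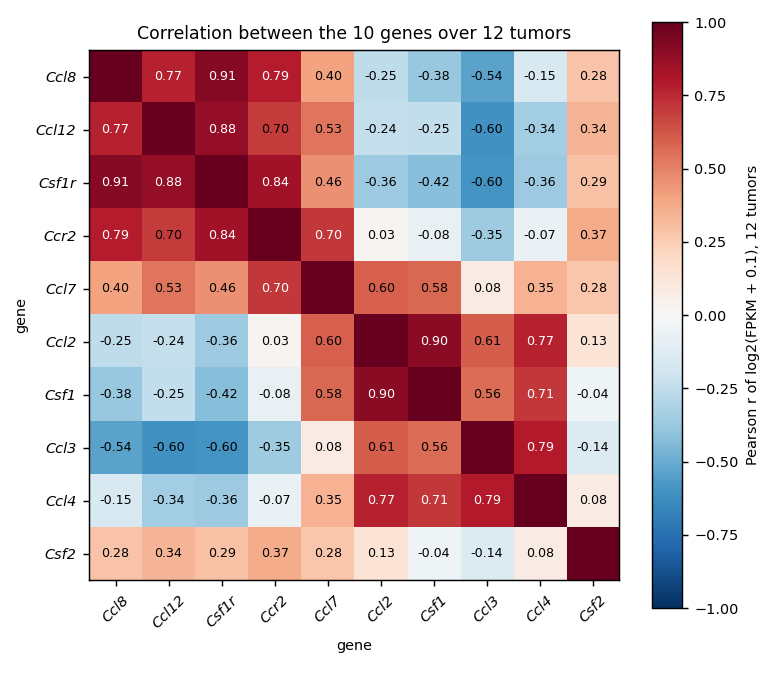
Pearson correlation of log2(FPKM + 0.1) over the 12 tumors for every pair of the 10 genes (both axes), with the value in each cell and color from -1 to 1. Ccl8, Ccl12, Csf1r and Ccr2 form a block of positive values, and Ccl2, Csf1, Ccl3 and Ccl4 another.

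The genes most like each of the 10 were searched among 11178 genes with a mean of at least 1 FPKM, by Pearson's r over the 12 tumors and as a description only. For Csf1r they were Adgre1 (0.990), Cstf2t (0.989) and Fermt3 (0.988). Adgre1 encodes a macrophage surface protein and Fermt3 an adaptor of blood cell integrins. For Ccl8 they were Il10ra (0.978), Cd86 (0.974) and Cxcl16 (0.972), and for Ccr2 they included Was (0.961) and Pira2 (0.958), most of them leukocyte genes. For Ccl12 they were Gas6 (0.944), Kcnk6 (0.934) and Fes (0.930).

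For Ccl2 the most similar genes were Tnfsf14 (0.905), Bcl3 (0.897) and Hmgxb3 (0.873), for Ccl3 Sod2 (0.936), Gtpbp4 (0.909) and Ifitm1 (0.899), and for Ccl4 Nlrp3 (0.890), Zfp407 (0.863) and Cebpg (0.853). Bcl3 and Sod2 are known targets of NF-kB, and Nlrp3 encodes an inflammasome sensor. For Csf1 they were Larp1 (0.926), Cbx1 (0.900) and L3hypdh (0.891), for Ccl7 Slc30a6 (0.923), Zmpste24 (0.914) and Slc27a4 (0.912), and for Csf2 Met (0.869), Gm42835 (0.854) and Gm38394 (0.842). Met encodes the receptor of hepatocyte growth factor.

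Other cells that could carry these genes were read from their markers. The 6 T cell markers were all higher with palbociclib at an unadjusted p under 0.05, against 20.5% of all genes under that threshold. They summed to 1.57 to 5.96 FPKM with vehicle, 6.16 to 12.7 with palbociclib, 1.44 to 3.18 under anti-PD-1 and 3.55 to 11.9 with the combination, with none at 0. The 4 mast cell markers summed to 0.352 to 25.4, 14.6 to 106, 0.081 to 9.01 and 2.44 to 22.9 FPKM in the same order, and Mcpt4, Cma1 and Tpsb2 were at 0 in at least 1 tumor. Fibroblast markers, whose cells also make CCL2 and CSF1, summed to 43.0 to 136, 42.4 to 136, 35.9 to 53.0 and 29.2 to 171. Of these 6 markers, 4 had positive palbociclib effects, and 2, Pdgfra and Pdgfrb, were lower at an unadjusted p under 0.05. The 4 endothelial markers summed to 12.5 to 26.3, 11.2 to 13.0, 15.5 to 27.6 and 9.88 to 13.3 FPKM. Of them 2 were lower at that threshold, Pecam1 and Cdh5, and 2 had positive effects. The part of these cells in the results was not tested.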

How the data were processed

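Total RNA of 12 subcutaneous tumors, 3 per arm, had been sequenced on an Illumina platform. The authors deposited 1 table of FPKM per tumor (34745 entries). HISAT2 and GRCm38/mm10 stand in the submitters' processing notes, and the counting tool and gene annotation are not given in the sources used here. For 67 repeated symbols the entry with the highest mean was kept. Genes with a mean of at least 0.1 FPKM were fitted with limma 3.58.1 (R 4.3.3) on log2(FPKM + 0.1), with 1 mean per arm, no covariate, eBayes with trend and Benjamini-Hochberg adjustment over all 15350 genes (threshold 0.05), with the code tested on simulated data. A fold change on this scale understates the change of low genes. Fragments were estimated from the steps of low values with lengths from GENCODE M21, which also gave the positions. Among genes with 1 annotated transcript and low estimates, 92.6% to 94.3% lay within 0.02 of a whole number. Genes with several transcripts were not part of that check. No count test was run on them. Ratios were compared by exact permutation with Python 3.11.15 and scipy 1.17.1, and windows were aligned with Biopython 1.88. Nothing in the labels says how the 3 tumors of an arm are related beyond being separate. The limma and ratio p-values set differences between arms against the spread between these samples. The named genes are the 10, the 10 pathway genes fixed for values, the 3 closest genes to each of the 10, Stk11 and Ptprc. A single one of the genes this rule names is not reported here. Csf3, Cebpb, Il1b and other pathway genes were named after their values were seen. The 10 genes and all lists were chosen with earlier results of these data known. Alternatives were pseudocounts of 1 and 0.01, other filters, TPM, quantile normalization, no trend, a replicate block, only the arms compared and leaving out tumors. Upstream windows came from RefSeq, whose starts differ from the GENCODE ones for Ccl3, Ccr2 and Csf2.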

Additional observations from a re-analysis of the deposited data

How the results depend on the processing

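The only call among the 10 genes, over 8 comparisons and all alternatives, was Ccr2 in the palbociclib effect without anti-PD-1 tumor 1 (1.26, limma adjusted p = 0.0311), so the count of genes called there lay between 0 and 1 with each tumor left out in turn. The palbociclib effects of Ccl8, Ccr2, Csf1r, Ccl7, Ccl12 and Ccl3 kept their direction under every alternative. The shift of Csf1r relative to macrophage markers lay between 0.074 and 0.26 with a tumor left out. Replicate numbers recur in all arms, and whether they pair the tumors was not tested. Of 18 same-numbered pairs, 7 had a correlation of deviations over 0.1 (lowest -0.21, highest 0.45), and 6 of 12 tumors correlated best with their own number. No chance level was set for these counts. With the replicate block 0 of the 10 genes were called in the palbociclib effect. Fits without palbociclib tumors 1 and 2 and combination tumors 1 and 2 leave 1 tumor in each of these arms, assumed to vary like the others. With 3 tumors per arm, and 57 fragments in all for Csf2, small differences were not detectable. Csf2 was left out by a filter at a mean of 1 FPKM. The number of all genes called moved more. With each tumor left out in turn it was 0 to 758 in the palbociclib effect (all tumors 48), 0 to 1 in the anti-PD-1 effect (all tumors 0), 0 to 3 in the interaction (all tumors 0), 1 to 46 in palbociclib minus vehicle (all tumors 22), 0 to 1 in anti-PD-1 minus vehicle (all tumors 0), 0 to 5 in combination minus vehicle (all tumors 2), 0 to 6 in combination minus anti-PD-1 (all tumors 1) and 1 to 4 in combination minus palbociclib (all tumors 1). Without a filter, it was 11 in the palbociclib effect, 3 in the anti-PD-1 effect, 7 in the interaction, 1 in anti-PD-1 minus vehicle, 2 in combination minus anti-PD-1 and 5 in combination minus palbociclib. Without the trend, it was 0 in the palbociclib effect, 6 in palbociclib minus vehicle and 1 in combination minus vehicle. With the replicate block, it was 129 in the palbociclib effect, 51 in palbociclib minus vehicle and 1 in combination minus vehicle. Without palbociclib tumors 1 and 2 and combination tumors 1 and 2, it was 12 in the palbociclib effect, 6 in the anti-PD-1 effect, 7 in the interaction, 3 in combination minus anti-PD-1 and 9 in combination minus palbociclib. With a filter at a mean of 1 FPKM, it was 1 in the anti-PD-1 effect, 2 in the interaction and 2 in combination minus palbociclib. With a pseudocount of 0.01, it was 1 in the interaction and 5 in combination minus vehicle. After rescaling to TPM, it was 1 in the interaction, 34 in palbociclib minus vehicle and 2 in combination minus palbociclib. After quantile normalization, it was 2 in the interaction and 1 in palbociclib minus vehicle. With only the 2 arms compared it was 0 in palbociclib minus vehicle, combination minus vehicle, combination minus anti-PD-1 and combination minus palbociclib. Differences that were not called also changed sign, 37 of 762 values with settings other than single tumors left out. Without palbociclib tumors 1 and 2 and combination tumors 1 and 2, these were Ccl2 0.12, Ccl4 0.17 and Csf1 0.020 for the palbociclib effect, Ccl2 0.20, Ccl7 0.17, Ccl4 0.11, Ccr2 0.29, Csf1 0.0063 and Csf2 0.19 for the anti-PD-1 effect, Ccr2 0.18 and Csf2 0.050 for the interaction, Ccl4 0.023 for palbociclib minus vehicle, Ccl2 0.32, Ccl3 0.12, Ccl4 0.29, Csf1 0.027 and Csf2 0.95 for combination minus vehicle, Ccl2 0.023, Ccl4 0.33 and Csf2 0.79 for combination minus anti-PD-1 and Ccl2 0.10, Ccl7 0.041, Ccl8 0.14, Ccr2 0.38, Csf1r 0.073 and Csf2 0.21 for combination minus palbociclib. After quantile normalization, these were Ccl4 0.011 for the anti-PD-1 effect and Ccl7 -0.069 for combination minus anti-PD-1. With a pseudocount of 1, these were Csf2 0.0018 for the anti-PD-1 effect and Csf2 0.033 for combination minus vehicle. After rescaling to TPM, these were Csf1r -0.018 for the interaction, Csf2 -0.23 for anti-PD-1 minus vehicle, Ccl7 -0.028 and Csf2 0.10 for combination minus anti-PD-1 and Ccl4 -0.036 for combination minus palbociclib. With a pseudocount of 0.01, these were Csf2 -0.62 for anti-PD-1 minus vehicle and Csf2 0.51 for combination minus anti-PD-1. With each tumor left out in turn, 79 of 960 values of the 10 genes changed sign, and the ranges of those differences follow. In the palbociclib effect they were Ccl2 -0.24 to 0.13, Ccl4 -0.39 to 0.11, Csf1 -0.22 to 0.10, Csf2 -0.23 to 0.60 and Il34 -0.082 to 0.062. In the anti-PD-1 effect they were Ccl2 -0.23 to 0.15, Ccl7 -0.24 to 0.078, Ccl4 -0.23 to 0.27, Ccr2 -0.32 to 0.053, Csf1 -0.21 to 0.11, Csf1r -0.58 to 0.049 and Csf2 -0.61 to 0.23. In the interaction they were Ccl3 -0.29 to 0.80, Ccl4 -0.50 to 0.49 and Csf1r -0.61 to 0.65. In palbociclib minus vehicle they were Ccl2 -0.053 to 0.69, Ccl4 -0.63 to 0.36 and Csf1 -0.17 to 0.48. In anti-PD-1 minus vehicle they were Ccl2 -0.040 to 0.70, Ccl7 -0.087 to 0.54, Ccl12 -0.48 to 0.48, Ccl3 -0.17 to 0.92, Ccl4 -0.47 to 0.52, Ccr2 -0.22 to 0.43, Csf1 -0.15 to 0.49, Csf1r -0.91 to 0.35 and Csf2 -0.56 to 1.11. In combination minus vehicle they were Ccl2 -0.46 to 0.28, Ccl7 -0.082 to 0.54, Ccl12 -0.28 to 0.66, Ccl3 -0.63 to 0.46, Ccl4 -0.61 to 0.37, Csf1 -0.43 to 0.22 and Csf2 -0.48 to 0.44. In combination minus anti-PD-1 they were Ccl7 -0.16 to 0.12, Ccl12 -0.10 to 0.63, Ccl4 -0.38 to 0.17 and Csf2 -1.11 to 0.56. In combination minus palbociclib they were Ccl8 -0.69 to 0.26, Ccl4 -0.22 to 0.33 and Csf1r -0.49 to 0.12. The cause of these changes was not tested.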
